A study of Mus musculus with 2 samples.

Results

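The cells described here are precursors of the Ptf1a lineage in the retina of mice at postnatal day 8. A cell was counted as such a precursor when its barcode held at least 500 genes, when at least 2 of the 6 genes Ptf1a, Prdm13, Lhx5, Neurog1, Ripply3 and Chodl had a UMI, and when fewer than 4 of 11 genes of more mature amacrine cells had one. Those 11 genes were Tfap2a, Tfap2b, Tfap2c, Gad1, Gad2, Slc32a1, Slc6a9, C1ql1, C1ql2, Snhg11 and Cbln2. The precursors were thus chosen by the measured counts of these 17 genes, whose levels are given as a description only. The rule chose 497 of 8814 cells, of which 219 of 5194 came from the Skp2+/- DKO library and 278 of 3620 from the DKO library. Both groups carried the α-Cre transgene, floxed Rb alleles (Rb f/f) and no functional p107 gene (p107-/-), and together these make the DKO genotype. The Skp2+/- DKO group also lacked 1 of its 2 copies of Skp2, and the submitters describe it as tumour-resistant and the DKO group as tumour-prone. Peripheral retina, the area in which α-Cre is active, was dissected, and single-cell 3′ libraries were made, 1 for each genotype. α-Cre acts in the peripheral retina only, so a cell from tissue beyond its border would keep Rb, and the number of animals behind each library is not given in the sources used here. With 1 library per genotype there is no replicate. Every interval below is a 95% interval of counting error, which treats UMIs as independent for levels and cells as independent for shares of cells. No difference between the libraries was tested against the spread between animals.

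Ptf1a is a basic helix-loop-helix (bHLH) transcription factor that works in a complex with an E protein and RBPJ, the DNA-binding protein of the Notch pathway. In the retina it is switched on in dividing precursors downstream of the forkhead factor Foxn4, and it directs them to become the inhibitory interneurons, the horizontal and amacrine cells. Prdm13, a zinc-finger factor, acts downstream of Ptf1a in amacrine cells. The pocket proteins Rb and p107 hold back E2F factors, and with them the start of DNA synthesis. Skp2 hands the cyclin-dependent kinase inhibitor p27, made from Cdkn1b, to a ubiquitin ligase for degradation.

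The genes of the rule lie apart in the mouse genome (build GRCm38, GENCODE annotation). Ptf1a spans chr2:19445663-19447501 on the plus strand and Prdm13 spans chr4:21677480-21685963 on the minus strand. Lhx5, a LIM homeobox gene, lies at chr5:120431699-120441223, and Neurog1, a proneural bHLH gene, at chr13:56250478-56252163. Chromosome 16 carries Ripply3, a transcriptional co-repressor, at chr16:94328420-94336935 and Chodl, a membrane protein with a lectin domain, at chr16:78930948-78951733. The 250 bases upstream of the RefSeq start of 4 of these genes are shown because RBPJ and bHLH factors are the known partners in this lineage, and capitals mark TGGGAA, the core letters of an RBPJ site, read on either strand (TTCCCA on the other).
Ptf1a: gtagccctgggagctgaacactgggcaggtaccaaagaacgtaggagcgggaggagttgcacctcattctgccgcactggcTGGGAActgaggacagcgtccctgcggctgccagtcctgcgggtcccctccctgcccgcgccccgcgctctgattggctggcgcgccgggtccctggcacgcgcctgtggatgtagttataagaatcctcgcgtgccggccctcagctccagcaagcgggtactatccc
Prdm13: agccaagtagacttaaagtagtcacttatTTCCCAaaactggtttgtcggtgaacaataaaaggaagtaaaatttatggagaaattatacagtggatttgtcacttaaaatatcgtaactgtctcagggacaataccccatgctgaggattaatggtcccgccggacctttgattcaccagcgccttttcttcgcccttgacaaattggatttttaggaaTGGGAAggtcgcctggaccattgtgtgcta
Neurog1: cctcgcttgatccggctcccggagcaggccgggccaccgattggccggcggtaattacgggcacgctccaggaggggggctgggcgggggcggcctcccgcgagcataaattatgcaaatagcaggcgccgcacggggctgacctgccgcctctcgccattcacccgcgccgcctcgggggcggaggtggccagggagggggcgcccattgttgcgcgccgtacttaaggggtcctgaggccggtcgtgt
Chodl: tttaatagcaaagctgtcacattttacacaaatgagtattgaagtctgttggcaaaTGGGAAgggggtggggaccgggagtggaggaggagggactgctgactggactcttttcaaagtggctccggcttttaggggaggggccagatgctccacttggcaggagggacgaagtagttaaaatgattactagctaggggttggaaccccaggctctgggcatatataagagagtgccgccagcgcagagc
These windows are chr2:19445413-19445662 on the plus strand for Ptf1a, chr4:21685964-21686213 on the minus strand for Prdm13, chr13:56252181-56252430 on the minus strand for Neurog1 and chr16:78930698-78930947 on the plus strand for Chodl, each written 5′ to 3′ along its gene. The Ptf1a window held 1 match, at position -169 from the start, the Prdm13 window held 2, at -221 and -30, the Chodl window held 1, at -194, and the Neurog1 window held 0. Of 32851 mouse promoter windows of the same length, 7094 (21.6%) held at least 1 match. CANNTG, the E-box that bHLH factors bind, occurred 4 times in the Chodl window and 0 times in the windows of Ptf1a, Prdm13 and Neurog1, against at least 1 match in 21753 (66.2%) of all windows. A match in letters is a description of the sequence and does not show that a factor binds there.

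The libraries differed in depth. All cells had a median of 3874 UMIs in the Skp2+/- DKO library and 4939 in the DKO library, and the shallowest barcodes had 2387 and 3420. The libraries shared 30 barcodes, of which 0 were among the precursors. The precursors were deeper than the other cells, with a median of 6387 UMIs against 3831 in the Skp2+/- DKO library and 7148.5 against 4822 in the DKO library. The rule counts detected genes, and detection rises with depth. In the sums over precursors, Skp2 itself had 92 UMIs, 53.6 CPM (its UMIs scaled to a common total), in the Skp2+/- DKO library and 261 UMIs, 90.0 CPM, in the DKO library, a ratio of 0.596 (0.464 to 0.758). In all other cells the ratio was 0.724 (0.674 to 0.778), so Skp2 was the lower in the library labelled Skp2+/- in both sets of cells. Averaged with each precursor weighted alike, Skp2 was 49.7 CPM in Skp2+/- DKO and 70.4 CPM in DKO precursors. When every cell was thinned to 2000 UMIs and the precursors were chosen anew, only 11 and 8 Skp2 UMIs were left and the direction turned. Reads at the 3′ end do not check the deletion of Rb1 or Rbl1 (the p107 gene): Rb1 was at 20.97 CPM in Skp2+/- DKO and 32.4 CPM in DKO precursors, and Rbl1 at 46.0 CPM and 34.1 CPM.

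The precursors were mostly cells with few of the 6 markers in view. In the Skp2+/- DKO library 130 cells had exactly 2 markers, 37 had 3, 31 had 4, 13 had 5 and 8 had all 6, against 132, 67, 39, 29 and 11 cells in the DKO library. Cells with all 6 were the deepest, with a median of 11097 UMIs in Skp2+/- DKO and 20415 in DKO precursors, against 5377.5 and 6435.5 for cells with 2. Just outside the rule lay 748 and 583 cells with 1 marker, and 20 and 55 cells with 2 or more markers but 4 of the mature amacrine genes, beside 61 and 79 cells just inside it with 3 of those genes. The markers did not travel as one block: the most frequent exact combinations were Prdm13 with Ripply3 (27 and 32 cells) and Prdm13 with Chodl (26 and 26 cells).

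Prdm13 was the marker most often detected. It had a UMI in 75.3% of Skp2+/- DKO and 80.6% of DKO precursors, Ripply3 in 59.8% and 64.4%, and Chodl in 46.6% and 51.1%. Ptf1a was seen in 42.0% and 48.2%, Neurog1 in 28.3% and 29.5%, and Lhx5 in 25.6% and 25.5%. Because every precursor had to show 2 of these genes, the shares are fixed in part by the rule. In 127 Skp2+/- DKO and 144 DKO precursors Ptf1a itself was not detected, and the name of the lineage rests there on the other markers. With the same precursors thinned to 2000 UMIs each, Prdm13 was left in 39.3% and 35.3% of them and Ptf1a in 24.2% and 20.9%. As a measure of free RNA, microglia, in which these genes are not known to be expressed and which were cells with at least 3 of 10 microglial genes, held a Prdm13 UMI in 2 of 50 Skp2+/- DKO cells (4.0%) and 3 of 39 DKO cells (7.69%), at median depths of 6320.5 and 8950 UMIs. Ptf1a, Lhx5 and Neurog1 had no UMI in either set of microglia, Ripply3 and Chodl had one in 0 of 50 and 1 of 39 cells each (2.56%), and at least 2 markers together were seen in 0 of 50 (upper limit of the interval 7.11%) and 1 of 39 (upper limit 13.5%).

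By level, Ptf1a and Chodl set the chosen cells furthest apart. Ptf1a was at 116 CPM in precursors and 5.03 CPM in other cells of the Skp2+/- DKO library, and at 111 CPM against 10.3 CPM in the DKO library. Chodl was at 114 against 6.66 CPM and at 109 against 9.72 CPM. Prdm13, which continues in maturing amacrine cells, was at 207 against 33.6 CPM and at 170 against 45.5 CPM. These levels describe the rule and support nothing. Of the mature amacrine genes, Gad2, which makes the transmitter GABA, was still at 131 CPM in precursors and 72.3 CPM in other Skp2+/- DKO cells, and at 128 against 87.9 CPM in the DKO library. The AP-2 factor Tfap2c was likewise the higher in precursors, at 118 against 37.2 CPM and 91.0 against 50.0 CPM. Tfap2b was the lower, at 37.3 against 64.8 CPM and 38.6 against 112 CPM, and C1ql1 was at 13.4 against 77.2 CPM and 12.4 against 121.5 CPM. The vesicular transporter Slc32a1 was low in precursors, at 12.2 CPM in Skp2+/- DKO and 11.03 CPM in DKO, and Gad1 was nearly absent at 1.17 and 0.690 CPM.

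Precursors made up a smaller share of the Skp2+/- DKO library. They were 219 of 5194 cells, 4.22% (exact Clopper-Pearson interval 3.69 to 4.80), in Skp2+/- DKO and 278 of 3620 cells, 7.68% (6.83 to 8.60), in DKO, a ratio of 0.549 (0.458 to 0.658). The direction was the same under every setting tried, and the size was not. With all cells thinned to 2000 UMIs the shares were 2.16% and 3.65% (ratio 0.591, 0.456 to 0.767), although only 96 Skp2+/- DKO and 100 DKO cells met the rule both ways. With the 1905 Skp2+/- DKO cells below the shallowest DKO cell left out the ratio was nearer 1, at 0.709 (0.584 to 0.858), from 179 of 3289 against 278 of 3620 cells. With at least 3 markers asked for it was further from 1, at 0.425 (0.323 to 0.557), from 89 and 146 cells. A smaller share was not particular to the precursors. In sets of cells defined below, amacrine cells were 5.87% of the Skp2+/- DKO and 11.02% of the DKO library. Neurogenic cells were 13.46% and 17.29%, and immature neurons 4.66% and 6.08%. Microglia were 0.963% and 1.08%, with intervals that overlapped. Whether these shares moved for the same reason as that of the precursors was not tested. Depth and genotype differ between the same libraries, so their parts in the precursor share cannot be told apart.

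**Figure D1:**
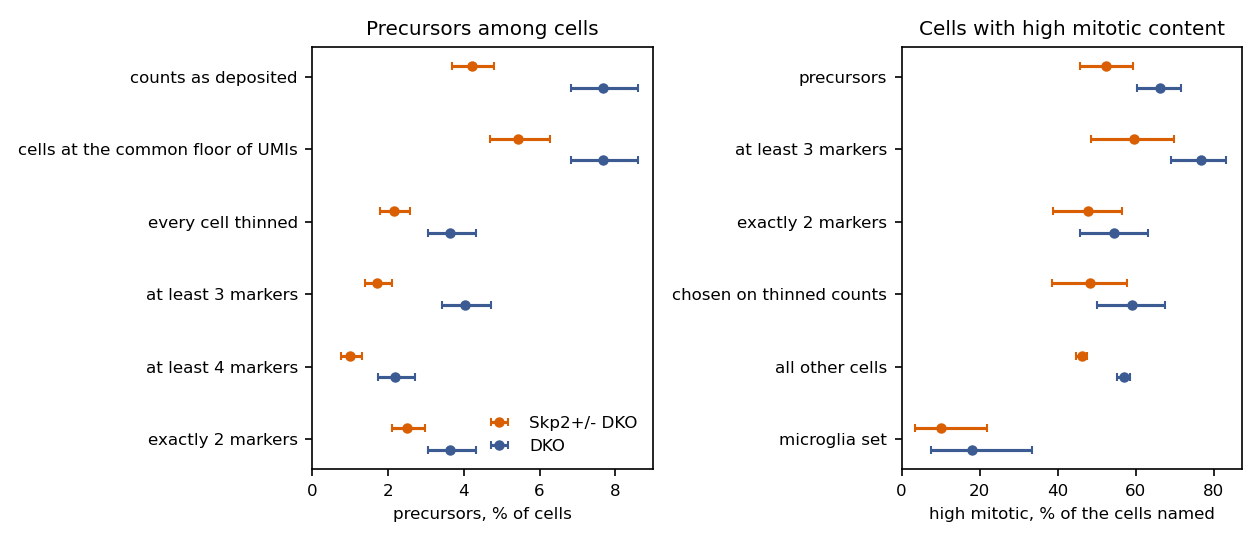
Left, precursors as a percentage of the cells of each library under 6 settings; right, cells of high mitotic content as a percentage of each cell set. Points are shares, bars are exact 95% binomial intervals, and Skp2+/- DKO stands above DKO in each pair. The Skp2+/- DKO share of precursors lies below the DKO share in every setting, with 4.22% against 7.68% on the counts as deposited.

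Few genes outside the rule were higher in precursors. Of 12284 genes with enough UMIs in both libraries, 28 (0.228%) were more than 2-fold higher in precursors than in other cells in both libraries, 6 of them the rule's own markers, and 231 (1.88%) were more than 2-fold lower; folds are differences of log2(CPM + 5). The leading genes outside the rule were transcription factors: the bHLH gene Olig1, the POU factor Pou3f1, the homeobox genes Dlx1 and Dlx2, the bHLH gene Neurod2 and the zinc-finger gene St18. With them came Notum, an enzyme that inactivates secreted Wnt proteins, Pkdcc, a secreted kinase, and Nuak1, a kinase of the AMPK family.

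Olig1 led the list. It was at 49.5 CPM (85 UMIs) in precursors and 5.74 CPM in other Skp2+/- DKO cells, and at 43.8 CPM (127 UMIs) and 5.30 CPM in DKO cells, log2 differences of 2.34 and 2.24. On counts thinned to equal depth, 7.76% of Skp2+/- DKO and 7.55% of DKO precursors held an Olig1 UMI, against 0.945% and 0.987% of other cells, so the difference was also seen at equal depth. Pou3f1 was at 51.3 against 6.74 CPM in the Skp2+/- DKO library and 56.9 against 9.63 CPM in the DKO library (log2 differences 2.26 and 2.08). Dlx1 was at 26.8 against 2.50 CPM and 21.04 against 2.23 CPM, and its neighbour Dlx2 at 19.2 against 2.66 CPM and 17.9 against 2.19 CPM. Neurod2, needed for amacrine subtypes, was more abundant, at 164 against 50.0 CPM and 167 against 61.4 CPM. Notum was at 18.1 against 1.96 CPM and 23.1 against 3.86 CPM. All of these values rest on sums in which the precursors hold 1716452 UMIs in Skp2+/- DKO and 2899878 in DKO.

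**Figure D2:**
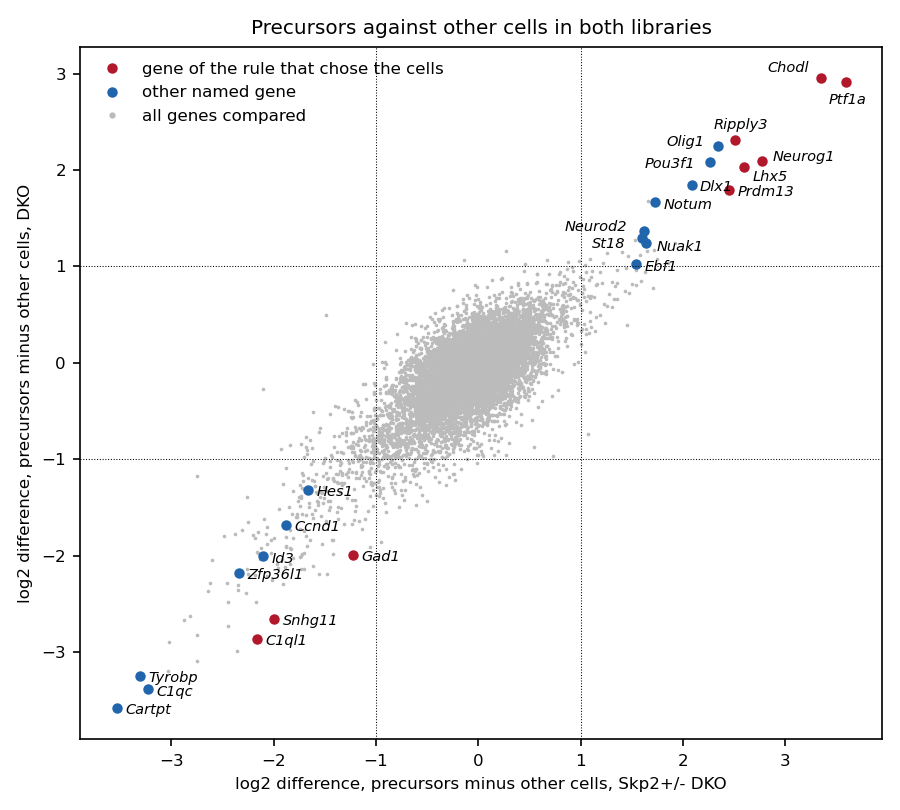
Log2 difference of each gene, precursors minus other cells, in the Skp2+/- DKO library (x) and the DKO library (y); the genes of the rule are in red, lines mark 2-fold, and named genes are labelled. Olig1 and Pou3f1 lie among the markers at the upper right, with differences above 2 in both libraries, while Cartpt and the microglial genes lie at the lower left.

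Lists of genes for the steps of retinal neurogenesis moved apart. Over all 12284 genes, 3801 were higher in precursors in both libraries and 5066 lower, with medians of -0.04 in each. Of 17 neurogenic factors 13 were higher and 1 lower, with medians of 0.45 in Skp2+/- DKO and 0.61 in DKO. Nhlh1, a bHLH gene of newly born neurons, was at 36.1 against 6.36 CPM in Skp2+/- DKO and 25.9 against 10.1 CPM in DKO (log2 differences 1.86 and 1.03), and the stress-inducible gene Gadd45a at 119 against 44.0 CPM and 86.9 against 48.0 CPM. Of 18 transcription factors of amacrine and horizontal cells 12 were higher and 5 lower, with medians of 0.55 and 0.41. Ebf1, a helix-loop-helix factor of amacrine cells, was at 306 against 102 CPM and 302 against 147 CPM, and Sox11 at 1991 against 727 CPM and 1858 against 937 CPM. Isl1, a factor of starburst amacrine, ganglion and bipolar cells, was lower, at 16.9 against 73.6 CPM and 32.8 against 63.1 CPM. Of 23 genes of young neurons 13 were higher and 6 lower: the tubulin gene Tubb3 was at 297 against 92.4 CPM and 191 against 97.5 CPM, while Dcx was at 6.99 against 17.8 CPM and 4.14 against 19.2 CPM.

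Genes of multipotent progenitors were lower. Of 16 progenitor factors 12 were lower in both libraries and 2 higher, 9 of them past 2-fold lower, with medians of -1.14 in Skp2+/- DKO and -1.04 in DKO. Id3, an inhibitor of bHLH factors, was at 58.8 against 269 CPM and 40.0 against 176 CPM. The Notch target Hes1 was at 72.8 against 242 CPM and 89.3 against 229 CPM, and Hes5 at 185 against 536 CPM and 126 against 316 CPM. Of 19 genes of the Notch pathway 9 were lower (47.4%) and 4 higher (21.1%), beside 41.2% and 30.9% of all genes, with medians of -0.41 in Skp2+/- DKO and -0.05 in DKO. Lfng, which modifies the Notch receptor, was the 1 past 2-fold, at 15.1 against 51.2 CPM and 6.55 against 47.6 CPM. The ligand Dll4, which marks cells leaving the progenitor state, was higher at 44.3 against 22.8 CPM and 35.5 against 22.7 CPM. Ccnd1, the main D-type cyclin of retinal progenitors, was at 9.32 against 47.6 CPM and 10.3 against 44.2 CPM, and Ccnd2 had no UMI in the precursors of either library.

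The cell-cycle lists, in contrast, moved little. Of 44 S-phase genes 25 were higher and 3 lower, with medians of 0.03 in Skp2+/- DKO and 0.29 in DKO, and 0 were past 2-fold. Of 39 mitotic genes 16 were higher and 12 lower, with medians of -0.02 and 0.07. Cdkn1a, the p53-induced kinase inhibitor p21, was at 693 against 464 CPM in Skp2+/- DKO and 857 against 450 CPM in DKO, and 11 of 15 p53 targets were higher, 2 lower. Mycn, a driver of progenitor growth, was at 194 against 108 CPM and 209 against 137 CPM.

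Genes of microglia, Müller glia and rods were mostly lower in precursors than in other cells. Of 8 horizontal cell genes 3 were higher and 3 lower, with a sum of 482 against 354 CPM in Skp2+/- DKO and 466 against 390 CPM in DKO. Of 8 cone genes 2 were higher and 3 lower (694 against 601 and 577 against 651 CPM). Of 11 bipolar genes 9 were lower and 1 higher, with sums of 725 against 820 and 952 against 802 CPM. All 10 microglial genes were more than 2-fold lower, with the adaptor gene Tyrobp at 4.08 against 85.0 CPM in Skp2+/- DKO and 3.10 against 72.0 CPM in DKO, and their sum was 14.0 against 359 CPM and 12.4 against 357 CPM. The gene with the largest difference downwards was Cartpt, a neuropeptide gene of differentiated neurons, at 4.08 against 100.1 CPM and 1.03 against 66.9 CPM. All 10 Müller glia genes were lower, 4 past 2-fold, and their sum was 710 against 2167 CPM and 553 against 1789 CPM. Of 12 rod genes 11 were lower, and their sum was 2234 against 2980 CPM and 1509 against 2816 CPM. The rod RNA sat in few cells: 5 cells held 47.9% of the precursors' rod UMIs in Skp2+/- DKO and 46.4% in DKO, and the median precursor had 0.029% and 0.0261% of its UMIs in the list. By simulated-doublet score 21 of 219 Skp2+/- DKO and 6 of 278 DKO precursors stood among the most doublet-like cells. Of the other cells 195 of 4975 and 99 of 3342 did so, so such cells were more frequent among precursors in the Skp2+/- DKO library only. Whether rod RNA in the precursors came from doublets was not tested.

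Set against 3 other sets of cells, the precursors shared some genes with each. Neurogenic cells were those with at least 2 of Olig2, Foxn4, Dll3 and Pkib, immature neurons those with both Igfbpl1 and Nhlh2, and amacrine cells those with at least 4 of the 11 mature genes, so those genes describe the sets. Cells that met the precursor rule were taken out first, so each cell in the first pair of sets showed fewer than 2 of the 6 markers. Ptf1a was at 116 CPM in Skp2+/- DKO and 111 CPM in DKO precursors, 6.001 and 4.36 CPM in neurogenic cells, 1.78 and 0 CPM in immature neurons and 22.4 and 43.5 CPM in amacrine cells. Prdm13 was spread more widely, at 207 and 170 CPM in precursors, 4.08 and 10.2 CPM in neurogenic cells, 181 and 145 CPM in immature neurons and 134 and 142 CPM in amacrine cells. Olig1 was at 49.5 and 43.8 CPM in precursors, 15.6 and 8.31 CPM in neurogenic cells, 2.66 and 4.52 CPM in immature neurons and 4.40 and 6.84 CPM in amacrine cells. Of these genes only Olig1 was outside the rule, and the levels of Ptf1a and Prdm13 across the sets are a description. Neurod2 was at 164 and 167 CPM in precursors and at 253 and 179 CPM in immature neurons.

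**Figure D3:**
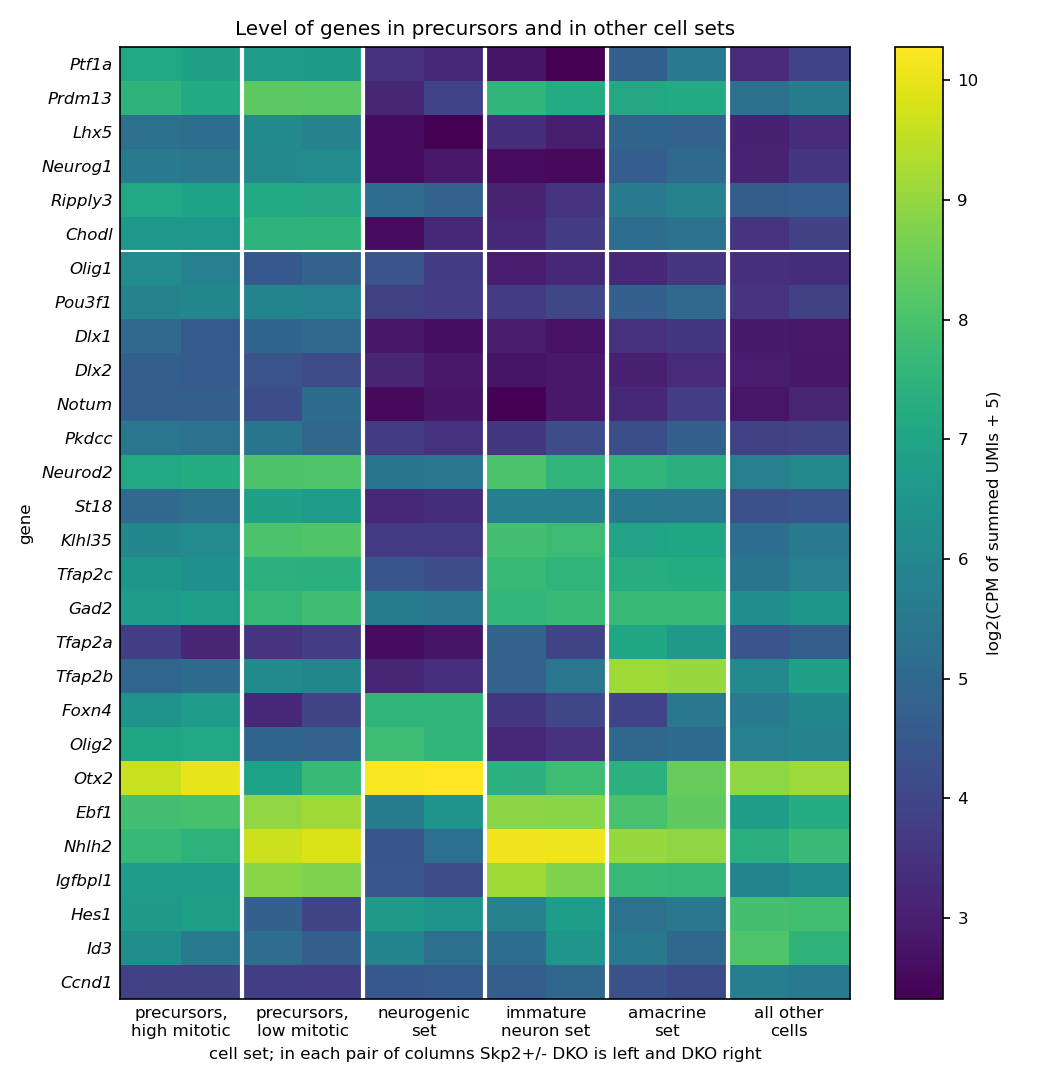
Level of 28 genes as log2(CPM + 5) in precursors of high and low mitotic content, neurogenic cells, immature neurons, amacrine cells and all other cells, with Skp2+/- DKO left of DKO in each pair of columns. Ptf1a is highest in both precursor columns, whereas Prdm13 is also high in immature neurons and amacrine cells.

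The precursors also differed among themselves by which markers they showed. Cells with a Ptf1a UMI held more Olig1: 92.8 CPM in the 92 Skp2+/- DKO cells with Ptf1a against 16.4 CPM in the 127 without it, and 68.9 against 17.6 CPM in 134 and 144 DKO cells. After thinning, an Olig1 UMI was seen in 15.2% against 2.36% of these cells in Skp2+/- DKO and 12.7% against 2.78% in DKO. Olig1 was thus seen more often in precursors with Ptf1a in both libraries. Those cells were also the deeper ones, at a median of 7208 against 5850 UMIs in Skp2+/- DKO and 7716 against 6681.5 in DKO. Precursors with 3 or more markers, set against those with exactly 2, had 3.53 times the Olig1 CPM in Skp2+/- DKO and 3.25 times in DKO, and 2.83 and 4.39 times the Notum CPM. Glra2, a glycine receptor subunit of differentiating neurons, was lower with 3 or more markers, at 0.458 and 0.422 times. Dlx2 was at 0.579 times (0.253 to 1.25) in Skp2+/- DKO and 11.1 times (3.59 to 55.8) in DKO, on 33 and 52 UMIs.

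A cell was called high in mitotic content when at least 5 of its UMIs, after thinning to 2000, fell on 39 mitotic genes, and low when at most 2 did. High cells were 115 of 219 Skp2+/- DKO precursors, 52.5% (45.7 to 59.3), and 184 of 278 DKO precursors, 66.2% (60.3 to 71.7), a ratio of 0.793 (0.623 to 1.01). Low cells were 85 (38.8%) and 72 (25.9%), and 19 and 22 lay between. Few cells sat at the threshold, with 12 and 13 at exactly 5 UMIs and 7 and 7 at exactly 4. Without thinning, at least 5 mitotic UMIs were seen in 66.7% of Skp2+/- DKO and 82.7% of DKO precursors. The other cells showed a like ratio, 0.811 (0.763 to 0.862), from 46.2% of Skp2+/- DKO and 56.9% of DKO cells. High content was thus less frequent in the Skp2+/- DKO library in both sets of cells. The ratio interval for the precursors reached 1, but it treats the counts as Poisson and is too wide for shares this large. The binomial intervals of the precursor shares, 45.7 to 59.3 and 60.3 to 71.7, did not overlap. Neurogenic cells were nearly all high, at 86.0% and 90.4%, immature neurons seldom, at 13.6% and 23.2%, amacrine cells at 16.7% and 26.1%, and microglia at 10.0% and 17.9%.

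As a description, since the markers chose the cells, the share of high mitotic content is also given by marker. It was found in 68.5% of Skp2+/- DKO and 79.1% of DKO precursors with a Ptf1a UMI, against 40.9% and 54.2% of those without. For Ripply3 the shares were 64.9% and 72.6% with a UMI against 34.1% and 54.5% without, although the cells with Ripply3 were also deeper, at 8037 against 4301.5 median UMIs in Skp2+/- DKO and 7689 against 6535 in DKO. For Prdm13 they were 46.7% and 65.2% with a UMI against 70.4% and 70.4% without, for Lhx5 50.0% and 64.8% against 53.4% and 66.7%, for Neurog1 48.4% and 72.0% against 54.1% and 63.8%, and for Chodl 48.0% and 68.3% against 56.4% and 64.0%. A cell without a given marker had to show 2 of the others, so these shares depend on the rule and on depth. In Skp2+/- DKO precursors the share was lower where more mature amacrine genes were seen, at 68.3% with 0 of them, 61.4% with 1, 43.3% with 2 and 42.6% with 3, while in DKO precursors it was 69.4%, 70.5%, 67.1% and 59.5%.

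High and low precursors differed in many genes. Of 6832 genes, 391 (5.72%) were more than 2-fold higher in high cells in both libraries and 137 (2.01%) more than 2-fold lower. All 39 mitotic genes were among the higher ones because they chose the cells. Outside the mitotic and S-phase lists, the leading 8 genes were Hist1h2ap, Sgol1, Txnip, Esco2, Hist1h1b, Ect2, Cdca2 and Ska1. Genes of cell division among them, such as Sgol1 and Ect2, rise with the mitotic list. Their difference thus also follows from the choice of cells and is a description. Sgol1, which protects cohesin at centromeres, had 161 UMIs in high and 0 in low Skp2+/- DKO cells, and 370 against 1 in DKO cells. Ect2, which directs cytokinesis, had 69 against 0 UMIs and 128 against 0 UMIs. The cohesin acetyltransferase gene Esco2 was at 153 against 4.43 CPM and 154 against 6.45 CPM. Among histone genes, Hist1h2ap was at 371 against 4.43 CPM and 686 against 6.45 CPM, with reads that may be shared with near-identical histone copies. Txnip, a regulator of thioredoxin and glucose uptake, was at 190 against 4.43 CPM in Skp2+/- DKO and 234 against 4.30 CPM in DKO.

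The neurogenic and progenitor factors were higher in high cells. Of 16 neurogenic factors 12 were higher and 4 lower, 6 past 2-fold higher and 2 past 2-fold lower, and of 13 progenitor factors 10 were higher and 2 lower, 6 past 2-fold higher. Over all genes 2845 were higher and 2147 lower, with medians of 0.06 and 0.08. Foxn4, the forkhead factor that acts before Ptf1a, was at 79.4 CPM in high and 4.43 CPM in low Skp2+/- DKO cells, and at 99.3 against 10.7 CPM in DKO cells. Olig2 was at 127 against 24.4 CPM and 130 against 23.6 CPM. Otx2, the homeobox gene of photoreceptor and bipolar precursors, was also present in high cells, at 783 against 117 CPM and 1011 against 204 CPM. Hes1 was at 94.5 against 22.1 CPM and 110 against 10.7 CPM. Olig1 followed with a smaller difference, at 66.9 against 17.7 CPM and 49.9 against 23.6 CPM.

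Low cells held more of the neuronal genes. Of 21 genes of young neurons 17 were lower in high cells and 3 higher, 13 past 2-fold lower, with medians of -1.19 in Skp2+/- DKO and -1.11 in DKO. Nhlh2, a bHLH gene of new neurons, was at 198 CPM in high and 810 CPM in low Skp2+/- DKO cells, and at 173 against 913 CPM in DKO cells. Igfbpl1, a secreted protein of axon-forming neurons, was at 97.2 against 465 CPM and 99.7 against 419 CPM. Cacng3, an auxiliary subunit of AMPA receptors, was at 20.5 against 120 CPM and 16.8 against 138 CPM, and Glra2 at 15.2 against 88.5 CPM and 12.8 against 98.9 CPM. Of 13 amacrine and horizontal factors 11 were lower in high cells, with Neurod2 at 128 against 263 CPM and 147 against 269 CPM. Among the other leading genes lower in high cells were Zfp804a, Nsg2, Necab1 and Klhl35, with log2 differences between -1.95 and -2.62 in both libraries. On thinned counts, with the precursors chosen anew, the smaller of the 2 libraries' differences was -2.05 for Cacng3, -1.63 for Nhlh2 and -0.75 for Igfbpl1, and for Necab1 the libraries no longer had the same direction.

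As a description, the genes of the rule also differed between high and low cells. Ptf1a was slightly higher in high cells, at 131 against 97.4 CPM in Skp2+/- DKO and 112 against 96.7 CPM in DKO, and Ripply3 was nearly level, at 133 against 142 CPM and 117 against 135 CPM. Prdm13 was lower in high cells, at 175 against 301 CPM and 142 against 299 CPM, as were Chodl, at 90.1 against 173 CPM and 88.7 against 176 CPM, and Lhx5, at 33.0 against 64.2 CPM and 31.3 against 53.7 CPM. Gad2 was at 98.1 against 190 CPM and 108 against 221 CPM, and Tfap2c at 87.4 against 166 CPM and 75.4 against 161 CPM. High cells were also the deeper ones, with a median of 8702 UMIs against 4162 in Skp2+/- DKO and 8761 against 5830 in DKO. With every cell thinned and the precursors chosen anew, the smaller of the log2 differences in the 2 libraries was 0.68 for Ptf1a, -0.25 for Prdm13, 0.17 for Chodl, -0.07 for Tfap2c and 0.0047 for Gad2. The rule chose the cells by these genes, so their levels in high and low cells are given as a description.

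**Figure D4:**
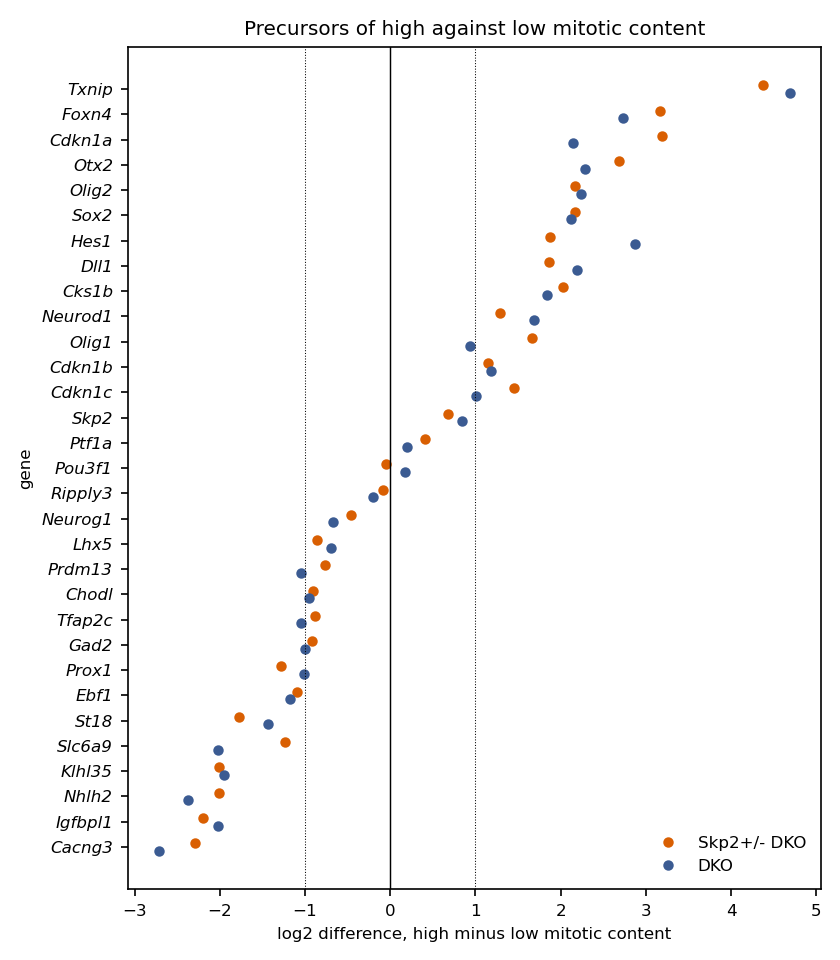
Log2 difference, high minus low mitotic content, in precursors of the Skp2+/- DKO and the DKO library for 31 genes. Foxn4 and Cdkn1a lie above 2 in both libraries, and Nhlh2, Igfbpl1 and Cacng3 lie below -2.

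All 6 measured genes in the list of inhibitors of cyclin-dependent kinases were more than 2-fold higher in high cells. The list includes Cdkn3, which encodes a phosphatase, with 62 against 1 UMIs in Skp2+/- DKO and 113 against 2 in DKO cells. Cdkn1a was at 967 CPM in high and 102 CPM in low Skp2+/- DKO cells, and at 1008 against 224 CPM in DKO cells. Cdkn1c, the inhibitor p57, was at 341 against 122 CPM and 252 against 122 CPM, and Cdkn1b at 74.9 against 31.0 CPM and 94.0 against 38.7 CPM. Inhibitor mRNA was thus more abundant in the precursors with more mitotic mRNA. Skp2 was also higher in high cells, at 59.8 against 35.4 CPM and 100.1 against 53.7 CPM, and its cofactor gene Cks1b at 512 against 122 CPM and 497 against 135 CPM. Of 42 S-phase genes, which played no part in the choice, 34 were higher and 4 lower, 12 past 2-fold, such as the ribonucleotide reductase gene Rrm2 at 290 against 28.8 CPM and 307 against 51.6 CPM. Rod genes ran the other way: their sum was 1266 CPM in high and 4567 CPM in low Skp2+/- DKO cells, and 1374 against 2469 CPM in DKO cells. Of the low cells' rod UMIs, 5 cells held 70.7% in Skp2+/- DKO and 82.8% in DKO.

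Few genes in the precursors differed by more than 2-fold between the genotypes. Of 8555 genes, 11 (0.129%) were more than 2-fold higher in Skp2+/- DKO precursors and 12 (0.14%) more than 2-fold lower, with 4479 genes higher, 4076 lower and a median of 0.01. In the sums, all 6 markers had ratios of Skp2+/- DKO over DKO above 1 in the precursors and below 1 in the other cells. With each precursor weighted alike, Prdm13, Lhx5 and Neurog1 stayed higher in Skp2+/- DKO. Ptf1a was then lower, at 138 against 150 CPM, as were Ripply3, at 163 against 167 CPM, and Chodl, at 150 against 162 CPM. Ptf1a had a ratio of 1.05 (0.873 to 1.25), from 199 UMIs in Skp2+/- DKO and 321 in DKO precursors, and 0.488 in other cells. Prdm13 had 1.22 (1.06 to 1.40) in precursors and 0.739 in other cells, and Tfap2c, of the mature genes, 1.30 (1.08 to 1.57) and 0.745. Since these genes chose the cells, the level per precursor is held up by the rule and the ratio in other cells counts the cells left outside it. Of the genes outside the rule that led the precursors, Olig1 had a ratio of 1.13 (0.849 to 1.4999), Pou3f1 0.901 (0.688 to 1.17), Dlx1 1.27 (0.850 to 1.90) and Neurod2 0.983 (0.845 to 1.14). None of these 4 intervals left out 1; over the 8555 genes, 719 (8.4%) had an interval of counting error wholly above 1 and 579 (6.77%) one wholly below.

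Mitotic and S-phase genes were mostly lower in Skp2+/- DKO precursors, which also held fewer high cells (52.5% against 66.2%). The part of that share in these differences was not tested. Of 39 mitotic genes 36 were lower and of 44 S-phase genes 38, with medians of -0.19 and -0.17. In other cells 35 mitotic genes and 16 S-phase genes were lower. Of 11 genes of cyclins and their kinases, 7 were higher and 4 lower in Skp2+/- DKO precursors. The ratio of their sums was 1.07 (1.01 to 1.13) in precursors and 1.07 (1.05 to 1.09) in other cells. It was 1.14 (1.07 to 1.21) in high precursors and 0.944 (0.826 to 1.08) in low ones. The summed S-phase level was 4663 CPM in Skp2+/- DKO and 5285 CPM in DKO precursors, a ratio of 0.882 (0.859 to 0.906), and 1.04 (1.03 to 1.05) in other cells. Within high precursors the ratio was 0.964 (0.934 to 0.994) and within low ones 0.794 (0.739 to 0.853). On thinned counts the median of the S-phase list moved to 0.09. Of 16 neurogenic factors 11 were lower and 5 higher, with a median of -0.12, against 7 lower in other cells. Nhlh1 was among the higher ones, at 36.1 CPM in Skp2+/- DKO and 25.9 CPM in DKO precursors. Among the lower genes, Foxn4 was at 54.8 CPM in Skp2+/- DKO and 81.4 CPM in DKO precursors (ratio 0.673, 0.524 to 0.858), Otx2 at 585 and 853 CPM (0.686, 0.637 to 0.738) and Neurod1 at 807 and 1149 CPM (0.702, 0.659 to 0.748). Within high cells alone these ratios were 0.7998 (0.619 to 1.03) for Foxn4, 0.775 (0.716 to 0.838) for Otx2 and 0.736 (0.686 to 0.788) for Neurod1.

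The kinase inhibitors did not move as one. Cdkn1b, whose protein is the target of Skp2, was at 61.2 CPM in Skp2+/- DKO and 82.1 CPM in DKO precursors (ratio 0.745, 0.587 to 0.942), against a ratio of 1.02 in other cells. It was at 74.9 and 94.0 CPM in high precursors, and at 31.0 and 38.7 CPM in low ones on only 14 and 18 UMIs. On thinned counts, with the precursors chosen anew, only 20 and 25 Cdkn1b UMIs were left. Cdkn1a was at 693 and 857 CPM (0.809, 0.754 to 0.867), against 1.03 in other cells. In high precursors Cdkn1a had a ratio of 0.959 (0.891 to 1.03) and in low ones 0.456 (0.315 to 0.651), and on thinned counts its direction turned. Cdkn1c was higher, at 283 and 231 CPM (1.22, 1.09 to 1.38), close to its ratio of 1.19 in other cells. Levels of mRNA do not measure the p27 protein.

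The genes that differed most between the libraries were of several kinds. Cwc22, a splicing factor, was at 83.9 CPM in Skp2+/- DKO and 21.04 CPM in DKO precursors (ratio 3.99, 2.94 to 5.47), and its ratio in other cells was 4.83. Prox1os, an antisense transcript of Prox1 whose counting by strand is not given in the sources used here, had ratios of 3.28 and 2.69 in precursors and other cells, and PISD, an enzyme of phosphatidylserine metabolism, 2.45 and 1.69. These 3 genes were thus higher in the Skp2+/- DKO library inside and outside the precursors. March1, a ubiquitin ligase gene, had ratios of 2.35 and 0.975, and Tmod2, a neuronal tropomodulin, 2.18 and 1.30. Opn1sw, the cone opsin, had a ratio of 3.76 in precursors and 0.968 in other cells, and 1 cell held 146 of its 207 UMIs in Skp2+/- DKO and 1 cell 60 of 93 in DKO. Without those cells its ratio was 3.17 (2.04 to 5.00). Pde6h, a cone phosphodiesterase subunit, had 155 of 279 UMIs in 1 Skp2+/- DKO cell, and without the top cell of each library its ratio was 1.53 rather than 2.44. Pcp2, a bipolar cell gene, had 49 of 85 UMIs in 1 cell, and its ratio without the top cells was 1.27 (0.801 to 2.00) rather than 2.24.

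**Figure D5:**
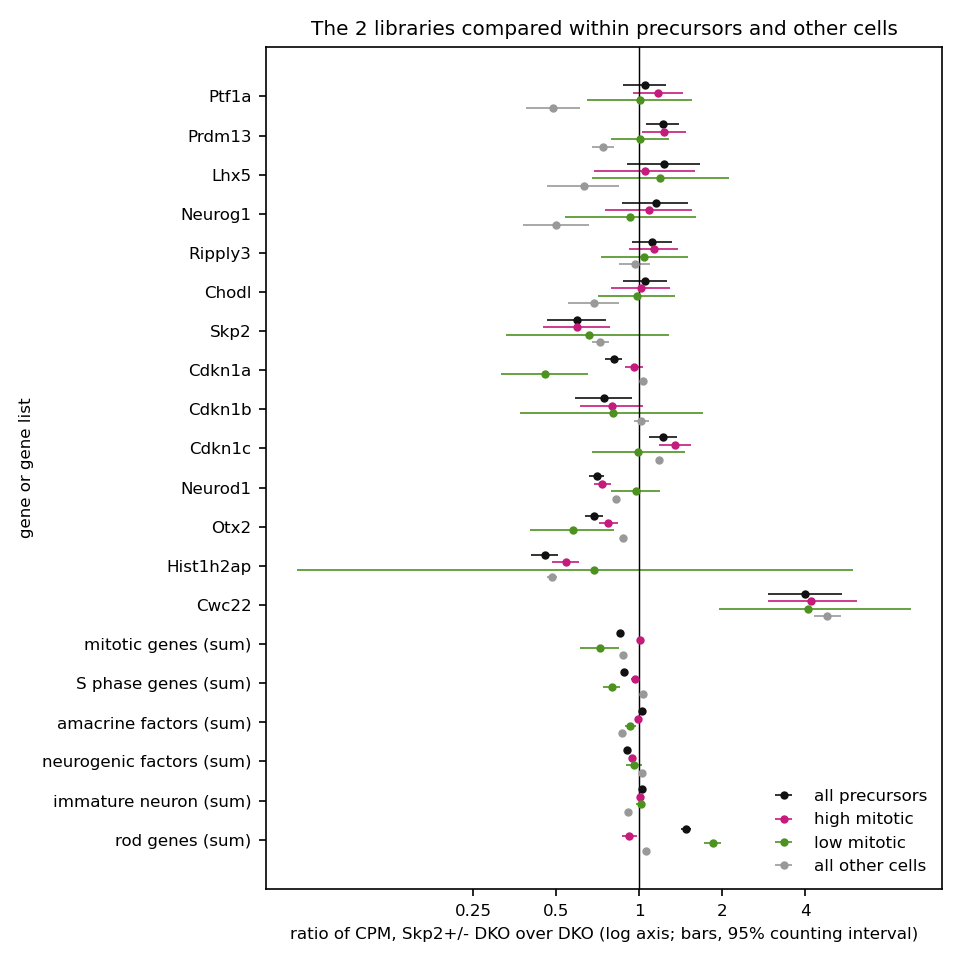
Ratio of CPM, Skp2+/- DKO over DKO, on a log axis, for 14 genes and 6 list sums in all precursors, high and low precursors and other cells; bars are exact 95% intervals of counting error. Skp2 lies below 1 in precursors (0.596) and other cells (0.724), and the rod sum lies above 1 in low precursors (1.85) and below it in high ones (0.921).

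Among the lower genes, Hist1h2ap was at 245 CPM in Skp2+/- DKO and 539 CPM in DKO precursors (ratio 0.454, 0.407 to 0.506), and its ratio in other cells was 0.484. Hist1h4d, another replication-dependent histone gene with near-identical copies, had ratios of 0.399 (0.266 to 0.583) in precursors and 0.628 in other cells. Plvap, an endothelial gene, had 0.492 and 0.367. Mn1, a transcriptional regulator, had 0.393 (0.229 to 0.645) and 0.713, and Fgfr1op, a centrosomal protein gene, 0.458 (0.300 to 0.682) and 0.938. The early-response gene Ier5l had 0.461 and 0.917, the endosomal tethering gene Vps8 0.516 and 0.729, and the Krüppel-like factor gene Klf11 0.494 and 0.856. All 8 of these genes were below 1 in both sets of cells.

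By number, genes of young neurons were mostly higher in Skp2+/- DKO precursors, while their sum was nearly level. Of 22 genes of young neurons 16 were higher, with a median of 0.15, against 1 of 22 in other cells, with a median of -0.18. The ratio of their sums was 1.03 (1.01 to 1.05) in precursors and 0.909 (0.903 to 0.915) in other cells. It was 1.01 (0.987 to 1.04) in high precursors and 1.01 (0.976 to 1.05) in low ones. Over all 8555 genes 4633 were higher in other cells, with a median of 0.01. The other cells mix many types, and amacrine cells and immature neurons were smaller shares of the Skp2+/- DKO library. The part of that mixture in the values of other cells was not tested. Nhlh2 was at 368 CPM in Skp2+/- DKO and 299 CPM in DKO precursors (ratio 1.23, 1.11 to 1.36), and Igfbpl1 at 198 and 158 CPM (1.26, 1.09 to 1.45). Within low precursors, where these genes were most abundant, the ratios were 0.887 (0.769 to 1.02) for Nhlh2 and 1.11 (0.908 to 1.36) for Igfbpl1. The share of low cells, 38.8% in Skp2+/- DKO and 25.9% in DKO, moved with these genes, and its part was not tested. Of 15 amacrine and horizontal factors 8 were higher (53.3%), with a median of 0.02, near the 52.4% and 0.01 of all genes, against 1 of 15 in other cells. All 12 rod genes were higher in Skp2+/- DKO precursors, with a median of 0.65 and a ratio of sums of 1.48 (1.42 to 1.55), against 7 of 12 and 1.06 in other cells. That ratio was 0.921 (0.865 to 0.981) in high precursors and 1.85 (1.72 to 1.99) in low ones, and on thinned counts the median of the rod list turned to -0.48.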

How the data were processed

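Single cells of the peripheral retina were sequenced as 1 10x 3′ library per genotype, and the authors deposited UMI counts per gene and barcode, made with Cell Ranger 2.2.0 on mm10 per the submitters' processing notes. The files hold 5196 and 3621 barcodes with a minimum of 2387 and 3420 UMIs, of which 2 and 1 had fewer than 500 genes and were left out. Counts were summed over cells, divided by the summed total and given as CPM, and differences are log2(CPM + 5) in Python 3.11.15 with pandas 2.3.3, numpy 2.4.6 and scipy 1.17.1. Figures were drawn with matplotlib 3.10.9. Intervals are exact Clopper-Pearson for shares and exact conditional Poisson for ratios, both at 95%. For a ratio of large shares of cells the Poisson interval is too wide.

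A gene was compared when it had at least 50 UMIs over precursors and other cells of each library, 50 over both libraries' precursors, or 30 over high and low precursors of each library, and it passed 2-fold for precursors against other cells and for mitotic content when both libraries did so. Cells were thinned to 2000 UMIs with a fixed seed, and no cell was shallower. The scripts were tested on simulated data. Scrublet in scanpy 1.11.5, at its automatic threshold, marked 2 and 1 barcodes and so had not worked; the 216 and 105 barcodes with the highest scores, 0.8% per 1000 barcodes, were left out as an alternative only. Coordinates are from GENCODE release M21, which matched 27645 of 27998 gene IDs, and promoter sequences are from RefSeq on GRCm38.

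The precursors, the 27 gene lists and the comparisons were chosen with earlier results of these data known. Named genes were the 17 genes of the rule, Skp2, the pocket protein genes and kinase inhibitors, and the genes with the largest differences: 15 up and 5 down for precursors, 8 each way for the genotypes (at least 100 UMIs and an interval that leaves out 1) and for mitotic content, without unnamed loci, plus the members of described lists with the largest differences. Alternatives were pseudocounts of 1 and 20 CPM, no minimum of UMIs, median-of-ratios scaling, doublets left out, thinned counts, at least 3 markers, a common floor of 3420 UMIs, other mitotic thresholds, cells weighted equally and, for single genes, the top cell left out. A few genes are not reported here.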

Additional observations from a re-analysis of the deposited data

Results flagged for a closer look

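In 3 of the genes named for this comparison the log2 difference between the libraries (Skp2+/- DKO minus DKO) had opposite directions in the precursors and in the other cells with both counting intervals away from no difference; with 1 library per genotype, the difference between the 2 sets of cells was not tested. Tfap2c, the AP-2 factor, stood at 0.3601 in the precursors and -0.3809 in the other cells. Prdm13 stood at 0.2754 in the precursors and -0.3867 in the other cells, and both genes are part of the rule that chose the precursors. Cdkn1a, the inhibitor p21, stood at -0.3043 in the precursors and 0.0448 in the other cells.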

How the results depend on the processing

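The ratio of precursor shares, 0.549, was 0.709 with a common floor of UMIs and 0.425 with at least 3 markers; the ratio of high mitotic shares, 0.793, ranged between 0.703 and 0.903 over its settings. Genes more than 2-fold higher in precursors than in other cells, 28, numbered 44 with a pseudocount of 1 CPM, 10 with 20 CPM, 109 on thinned counts, 45 with at least 3 markers and 64 with cells weighted equally; the 231 lower genes numbered 583, 73 and 419 under the first 3 of these. Between the genotypes the 11 higher genes numbered 33 with 1 CPM, 4 with 20 CPM, 23 with no minimum of UMIs and 5 on thinned counts, and the 12 lower ones 33, 1, 22, 6 and, with at least 3 markers, 37. Between high and low mitotic content the 391 higher genes numbered 239 with 20 CPM, 58 on thinned counts and 246 with at least 3 markers, and the 137 lower ones 71, 15 and 47, and 240 with no minimum of UMIs. Pseudocounts and minimums change these counts by construction, and the cause of the others was not tested.

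A value was called where a fold passed its threshold, a counting interval left out 1 or a list median was at least 0.2. On thinned counts 9 called values turned: log2 differences between the genotypes were -2.47 for Opn1sw, -2.01 for Pde6h, -2.01 for Pcp2, 0.44 for Mn1, -0.096 for Tfap2c, 0.62 for Skp2 and 0.60 for Cdkn1a, and list medians were -0.48 for rod genes between the genotypes and 0.023 for kinase inhibitors, precursors against other cells. They rest on 11 Skp2, 110 Cdkn1a, 42 Tfap2c, 5 Mn1 and 0 Opn1sw, Pde6h and Pcp2 UMIs in Skp2+/- DKO and 8, 85, 53, 4, 6, 4 and 4 in DKO precursors. Values without a call, or close to 0, also crossed it: over all settings, beside these 9, the values of named genes and list medians changed sign 61 times and came to 0 in 20, among them the S-phase median between the genotypes (-0.17, and 0.092 on thinned counts), and 1365 kept their sign.

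No paired analysis was possible because each genotype has 1 library. The 2 libraries differ in depth, detection limits the markers to genes with a UMI, and free RNA, doublets and the number of animals behind each library limit every comparison of the genotypes.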
